A study of Mus musculus with 4 samples.

Results

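The clustered protocadherin genes of the mouse lie on chromosome 18 and were followed here with their flanks. The region was taken as all 100 kb windows of the replication profile that end between 34600000 and 40100000 (both included) in GRCm38. It holds 221 windows spaced 25 kb, all with a value in all 4 libraries, of 94694 such windows on the 19 autosomes. Of these, 56 windows spaced 100 kb do not overlap each other. In the RefSeq gene table of GRCm38.p6 the Pcdha genes lie at 36930285 to 37188897, the Pcdhb genes at 37264998 to 37521419 and the Pcdhg genes at 37661775 to 37841873. Windows with their midpoint between the first start and the last end are called the cluster (36 windows), those before it the left flank (96 windows) and those after it the right flank (89 windows).

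TrAEL-seq was performed on mouse embryonic stem cells of the line 129S6/SvEvTac, grown in serum with LIF on gelatin. Cells of the wild-type genotype (WT) and cells lacking Snf2h (labelled SNF2KO, here KO) were each grown as duplicate cultures, which gave 2 libraries per genotype. The labels do not say how many clones stand behind the knockout. For WT replicate 2 the label and the column heading name different index sequences. Expression of Snf2h was not analysed here, so the genotypes are those of the labels.

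Protocadherins are cell adhesion proteins of the cadherin family. Neurons switch on different sets of the clustered genes, which gives each cell its own surface identity, and the architectural factor CTCF and cohesin loop distant enhancers to the chosen promoters. Snf2h is the ATPase of ISWI remodelling complexes, which space nucleosomes and are known to help CTCF occupy its sites. TrAEL-seq captures free 3′ ends of DNA, and the imbalance of these ends between the strands follows the direction in which replication forks move. Where forks start, the balance swings in the one direction along the chromosome, and where oncoming forks meet it swings back. CTCF sites and the binding of CTCF were not analysed here.

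The deposited value is that strand imbalance, called polarity, in percentage points between -50 and 50. The files do not state which sign stands for forks moving towards higher coordinates, so a swing is named only by its direction on the deposited scale, a rise or a fall with increasing coordinate. The profile gives no counts, so the depth behind a value is unknown and no counting interval was computed. Replicate spread is the SD of the 2 libraries of a genotype. For a difference between genotypes it is pooled from both. With 2 against 2 libraries the smallest exact permutation p is 0.33, so no such test could pass 0.05. No p was computed for means over many windows of the region, which were chosen with earlier results known. Over the autosomal windows that do not overlap, the SD of polarity was 14.6 and 12.8 points in WT replicates 1 and 2 and 19.5 and 14.5 points in KO replicates 1 and 2. This general difference in amplitude touches each size below, and values were therefore also computed after each library was centred and brought to the same SD, called standardised.

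Polarity went from positive to negative across the cluster in every library, with 1 sign change. The drop from the highest to the lowest point began just before or inside the Pcdha genes and ended in or just after the Pcdhb genes. On a running mean of 5 windows, WT replicate 1 fell from 29.4 points at 36900000 to -24.5 points at 37425000. WT replicate 2 fell from 25.9 points at 36850000 to -21.1 points at 37450000. Pcdha genes thus lay on the positive side and Pcdhb genes on the negative side of the profile in WT cells. KO replicate 1 fell from 38.0 points at 36875000 to -33.5 points at 37450000, and KO replicate 2 from 30.4 points at 37050000 to -27.8 points at 37575000. Cells lacking Snf2h had the same order of signs, with a higher start and a lower end in both KO libraries than in both WT libraries. The drop was not an unbroken fall in each of them. By the rule for segments given below, the fall called in WT replicate 2 covered only 37000000 to 37275000 (-28.5 points), and that in KO replicate 2 only 37050000 to 37400000 (-53.2 points). In WT replicate 2 polarity went from -10.8 points in the window from 37250001 to -6.38 points in the window from 37300001 before it dropped further.

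**Figure D1:**
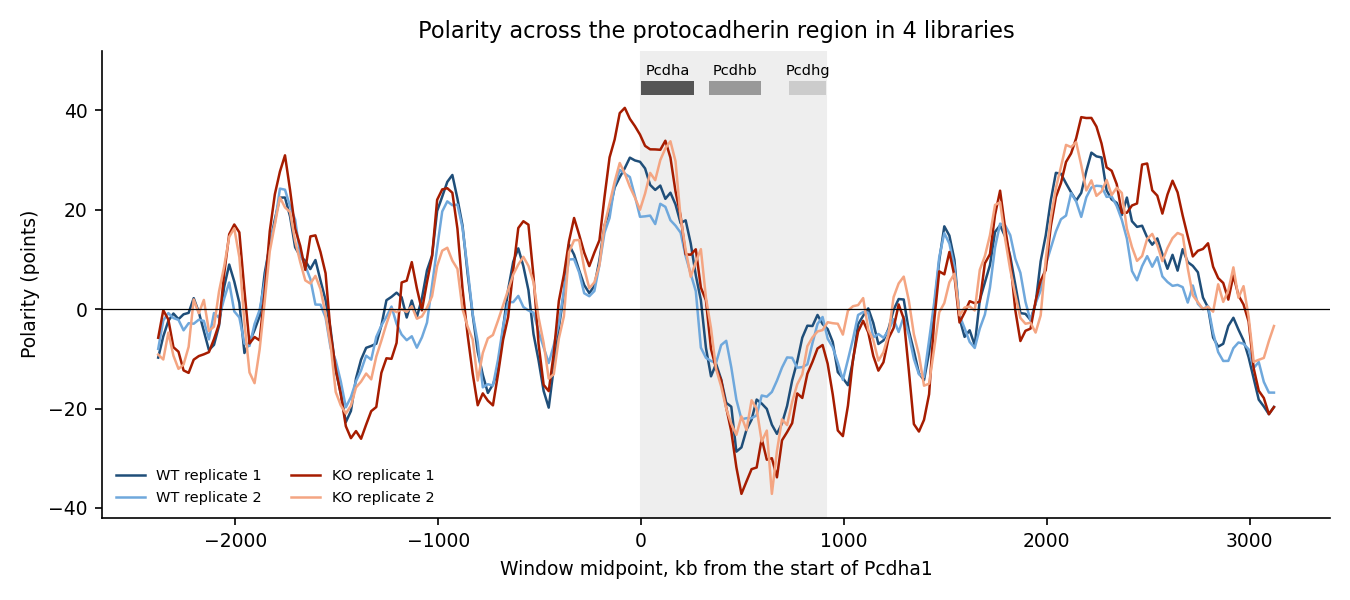
Polarity in points (y axis) of the 221 windows of the region by distance of the window midpoint from the start of Pcdha1 in kb (x axis), with a line for each library. The shaded stretch is the cluster, with bars for Pcdha, Pcdhb and Pcdhg. In all 4 libraries the lines drop from above 20 points near Pcdha1 to below -20 points at the Pcdhb genes.

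The whole drop was -53.9 and -47.0 points in WT replicates 1 and 2 and -71.6 and -58.2 points in KO replicates 1 and 2. The groups did not overlap, and the KO libraries had the larger drops. The mean drop was -50.5 ± 4.83 points for WT (SD, n = 2) and -64.9 ± 9.48 points for KO (SD, n = 2). These means lay -14.4 points apart, more than the 7.53 points of the replicate SD (exact permutation p = 0.33, two-sided). The difference was -7.71 points without KO replicate 1. After standardising, the drops were -56.6 and -56.3 points (WT) against -56.5 and -61.5 points (KO), and the groups overlapped, with a difference of -2.57 points and a replicate SD of 2.50 points (exact permutation p = 0.667). The stretch from top to bottom was 525 and 600 kb in the WT libraries, and 575 and 525 kb in the KO libraries.

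Among falls of the genome, that of the cluster was large. On the mean profile of the 4 libraries, segments between a local extremum and the next that changed by at least 1 SD were called. The cluster fall, from 37025000 to 37450000, measured -51.5 points. Of the 2444 falls called on autosomes, 96.5% were smaller, and it ranked as number 85 by size. It was 425 kb long, against a median of 325 kb, and 68.7% of falls were shorter. A median fall measured -26.4 points. Evenness was also measured without segments. The SD of each window minus the mean of its neighbours on either side was 6.54 and 7.52 points (WT) against 6.90 and 7.89 points (KO) in the cluster (9 windows). In the flanks (47 windows) it was 10.2 and 8.73 points (WT) against 12.3 and 9.54 points (KO), and every library was less even there. Over the autosomes it was 8.09 and 7.52 points (WT) against 10.6 and 9.18 points (KO). In WT replicate 2 the cluster was thus at the level of the autosomes, and in all libraries the flanks lay above it.

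The place where polarity passed 0 lay between the end of the Pcdha genes and the start of the Pcdhb genes. It was 37225548 and 37204554 in WT replicates 1 and 2. In the KO libraries it was 37248050 and 37257989. Both KO libraries thus changed sign closer to the Pcdhb genes than both WT libraries. Counted from the start of Pcdha1, the sign change was at 284.8 ± 14.8 kb in WT and 322.7 ± 7.03 kb in KO (SD, n = 2 each). The shift of 38.0 kb exceeded the replicate SD of 11.6 kb (exact permutation p = 0.33). It was larger than the 25 kb step of the windows but smaller than the 100 kb that each window covers. After standardising the shift was 38.1 kb. It was 18.7 kb when the profile was smoothed over 9 windows. Shifts of this kind were common in the genome. Of 1578 autosomal falls with 1 sign change in each library, the genotypes did not overlap in 52.9%, with KO at higher coordinates in 25.5% and at lower coordinates in 27.4%. A shift of at least that size was found in 34.7% of them, and the median was 25.6 kb.

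The windows of the cluster that do not overlap each other show where the genotypes parted. The window that ends at 37000000, which holds the starts of Pcdha1 to Pcdha9, had 28.3 and 18.7 points (WT) against 32.9 and 23.3 points (KO). In the next window, from 37000001, with the starts of Pcdha10 to Pcdha12 and Pcdhac1, the values were 22.2 and 20.6 points (WT) against 33.9 and 32.4 points (KO). In the window from 37100001, which ends the Pcdha genes with Pcdhac2 and the exons they all share, they were 17.9 and 10.7 points (WT) against 11.0 and 11.96 points (KO). On the deposited scale only the middle window of these 3 separated the genotypes, with KO higher by 11.7 points (SE 4.50, limma adjusted p = 0.312). Once standardised, 2 of the 3 were separated, since KO then lay narrowly below WT in the window from 37100001. The 6 windows that overlap the middle window, and share reads with it, all had KO above WT on the deposited scale.

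In the window from 37200001, which spans the gap before the Pcdhb genes and the first members Pcdhb1 and Pcdhb2, WT had -7.80 and -9.79 points and KO had 1.77 and 2.33 points. Polarity there was negative in both WT libraries and positive in both KO libraries, which is the shifted sign change seen at a fixed place (10.8 points between the means, SE 4.50; adjusted p = 0.340 in limma). In the window from 37300001, with Pcdhb3 to Pcdhb8, the values were -18.9 and -6.38 points (WT) against -19.8 and -20.0 points (KO). In the window from 37400001, with Pcdhb9 to Pcdhb19, they were -24.3 and -21.9 points (WT) against -34.7 and -24.3 points (KO). KO lay below WT in both on the deposited scale, and neither window was separated after standardising. In the former both KO libraries were close to WT replicate 1, and WT replicate 2 stood apart. In the latter KO replicate 2 was all but level with WT replicate 1.

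The last 3 windows cover the end of the Pcdhb genes and most of the Pcdhg genes, whose last members lie in the window from 37800001, counted with the right flank. From 37500001, WT had -20.1 and -17.6 points and KO had -30.3 and -24.4 points. From 37600001, a window with the first Pcdhg genes, Slc25a2, a mitochondrial carrier gene, and Taf7, which encodes a subunit of the general transcription factor TFIID, WT had -19.5 and -9.72 points and KO had -24.8 and -23.3 points. KO was below WT in both windows, with differences of -8.53 and -9.44 points between the means. From 37700001, with the starts of Pcdhga6 to Pcdhga12, the values were -3.33 and -11.1 points (WT) against -13.0 and -7.45 points (KO), and the groups overlapped.

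**Figure D2:**
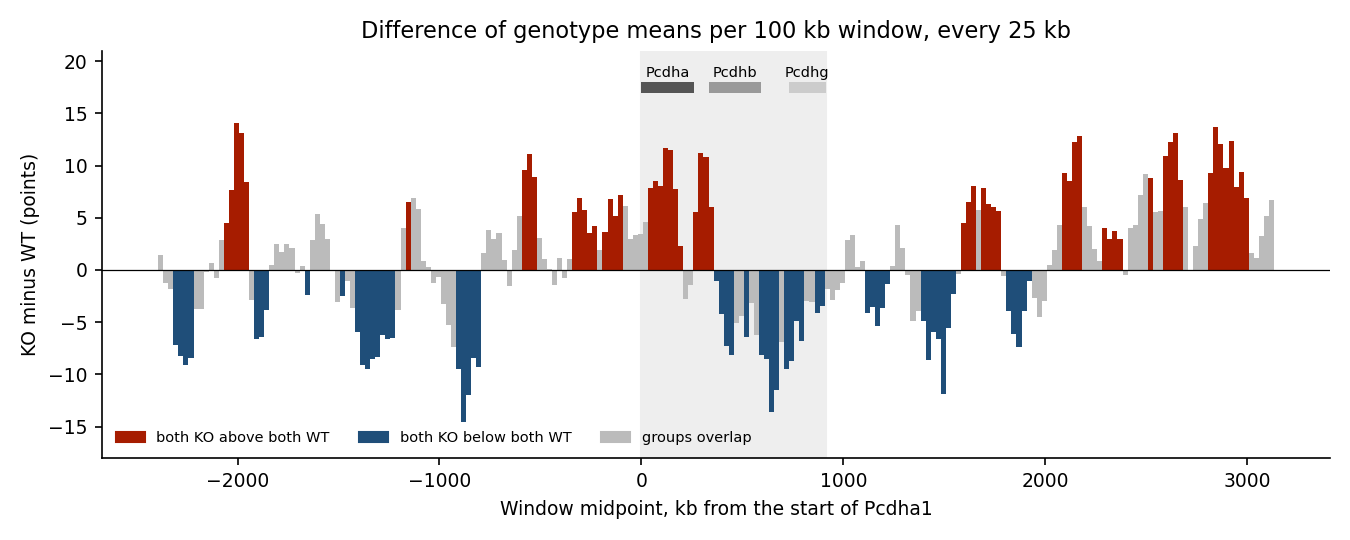
Mean of the KO libraries minus mean of the WT libraries in points (y axis) for each of the 221 windows, by distance of the window midpoint from the start of Pcdha1 in kb (x axis). Red and blue bars mark windows where both KO values lie above or below both WT values, and grey bars mark overlap; neighbouring windows share reads. In the cluster the red bars run from the Pcdha genes up to the window from 37225001, whose midpoint is just inside the Pcdhb genes, and the blue bars lie beyond it.

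None of the region's windows was called. The limma fit on the 23672 autosomal windows that do not overlap gave 0 windows with an adjusted p under 0.05 among the 56 of the region, against 0.0549% of all windows (13 windows). At an unadjusted p under 0.05 there were 6 in the region, 5 higher and 1 lower in KO, and 12.2% over the autosomes. Over the autosomes 0.0338% of windows were called higher and 0.0211% lower in KO. The lowest adjusted p of the region was 0.218. Without KO replicate 2, which leaves a lone KO library assumed to vary like the WT libraries, 12 of the 56 windows were called, against 20.2% of all windows. Without KO replicate 1, 3 were called, against 5.79%.

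The groups did not overlap in 30 of the 56 windows (53.6%), 14 with KO above and 16 with KO below WT. Over all autosomal windows the share was 44.7%, so the region lay not far above it. In the cluster it was 6 of 9 windows, 2 above and 4 below, and in the flanks 24 of 47, 12 above and 12 below. In 5 of those 6 cluster windows KO lay farther from 0 than WT, on the same side, as it did in 64.45% of the separated windows of all autosomes. The exception was the window from 37200001, where the sign differed. After standardising, 4 of the 9 cluster windows and 23 of the 47 flank windows were separated. The median absolute difference was 7.30 points in the cluster and 3.99 points in the flanks, beside 4.44 points over all autosomal windows.

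Mean polarity differed in sign among the 3 gene groups. Over the 10 windows of the Pcdha genes it was 21.7 and 16.4 points (WT) against 25.8 and 23.9 points (KO). Both KO libraries were above both WT libraries, with a difference of 5.80 points and a replicate SD of 2.81 points. It was 3.15 points without WT replicate 2, and after standardising it was 1.62 points and the groups overlapped. All 10 windows were above 0 in every library.

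Over the 10 windows of the Pcdhb genes, mean polarity was -19.8 and -15.2 points (WT) against -24.6 and -18.4 points (KO). The groups overlapped, since KO replicate 2 lay between the WT libraries, and the difference of -4.00 points was close to the replicate SD of 3.87 points. It was -0.890 points without KO replicate 1, -1.69 points without WT replicate 2, -6.31 points without WT replicate 1 and -7.11 points without KO replicate 2. After standardising it was 0.0630 points, with the sign turned. Over the 7 windows of the Pcdhg genes, mean polarity was -5.93 and -7.97 points (WT) against -13.8 and -9.82 points (KO). KO lay below WT, with -4.86 points between the means and 2.23 points as the replicate SD. The difference was -2.87 points without KO replicate 1. After standardising it was -2.75 points, against a replicate SD of 1.65 points, and the groups still did not overlap. No window of the Pcdhb or Pcdhg genes was above 0 in any library.

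**Figure D3:**
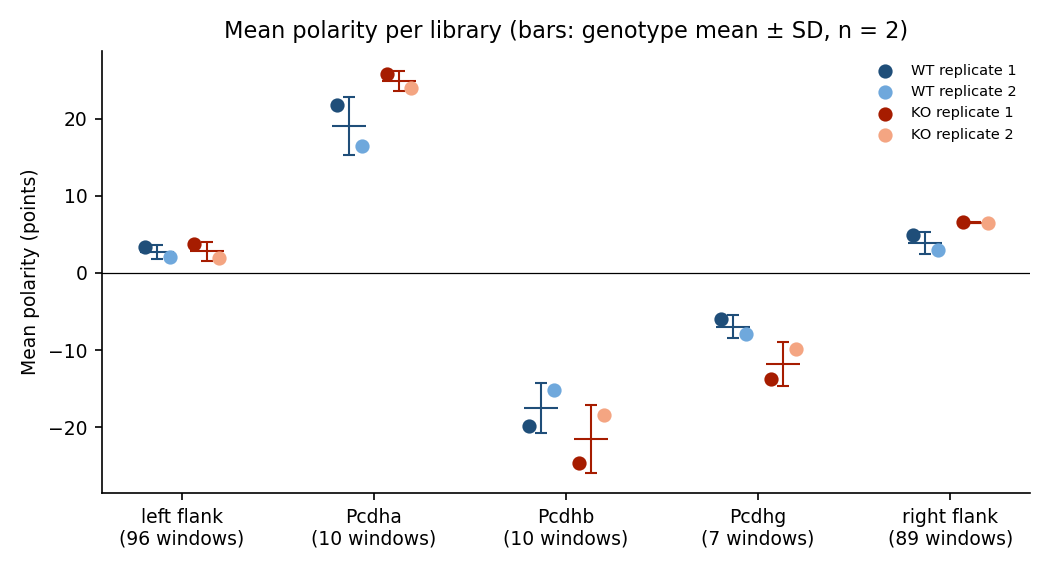
Mean polarity in points (y axis) over the windows of the left flank, the Pcdha, Pcdhb and Pcdhg genes and the right flank (x axis, with the number of windows). Dots are libraries and bars the genotype means ± SD (n = 2). The flanks lie between 1.89 and 6.60 points in all libraries, the Pcdha genes above 16 points and the Pcdhb genes below -15 points.

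Cluster and flanks were then compared within each library. Over all 36 cluster windows, mean polarity was -4.21 and -4.03 points (WT) against -6.61 and -4.22 points (KO). Over the 185 flank windows it was 4.09 and 2.47 points (WT) against 5.09 and 4.09 points (KO). The cluster lay below the flanks in every library, by -8.30 and -6.51 points (WT) against -11.7 and -8.31 points (KO). The 2 genotypes differed in this by -2.60 points, against a replicate SD of 1.92 points, and KO replicate 2 was all but level with WT replicate 1. The difference was -0.902 points without KO replicate 1, -1.70 points without WT replicate 2 and -4.30 points without KO replicate 2. After standardising it was -0.761 points, still without overlap, with flanks limited to 1 Mb it was -1.42 points, and with the cluster widened to whole 100 kb windows it was -2.60 points and the groups overlapped. For the cluster alone the difference of -1.29 points was -0.0968 points without KO replicate 1 and -2.49 points without KO replicate 2, and -0.211 points with overlap after standardising.

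The spread of polarity was wider in the cluster than in the flanks in all libraries. The SD over cluster windows was 18.4 and 14.2 points (WT) against 23.6 and 20.9 points (KO). The SD over flank windows was 13.05 and 11.4 points (WT) against 16.98 and 11.98 points (KO). In the cluster each KO library lay above each WT library, by 5.96 points on average against a replicate SD of 2.52 points. After standardising, the difference was 2.22 points and the groups overlapped, and without WT replicate 2 it was 3.85 points. In the flanks KO replicate 2 lay between the WT libraries, and the difference of 2.25 points was below the replicate SD of 2.63 points. Relative to the flanks of the same library, the SD of the cluster was 1.41 and 1.24 times as large in WT and 1.39 and 1.74 times as large in KO. KO replicate 1 lay between the WT libraries in this ratio, and KO replicate 2 had the highest value. Across the 9 cluster windows, which are not independent, the libraries correlated at 0.921 to 0.988, with the highest value between the KO libraries. Across the 47 flank windows the range was 0.832 to 0.955, with the lowest value between WT replicate 2 and KO replicate 2.

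The region held 15 transitions on the mean profile, 10 rises and 5 falls. Inside the cluster there was the fall from 37025000 to 37450000 and a rise from 37550000 to 37825000 over Slc25a2, Taf7 and the Pcdhg genes. Measured between the same ends in each library, the fall was -48.1 and -40.2 points (WT) against -65.7 and -51.8 points (KO). The rise was 17.5 and 12.5 points (WT) against 19.6 and 23.4 points (KO), a difference of 6.54 points and a replicate SD of 3.14 points (exact permutation p = 0.33). On the deposited scale both transitions of the cluster were larger in both KO libraries, at 1.33 times WT for the fall and 1.44 times for the rise. After standardising, the difference in the fall went from -14.6 to -3.98 points, still without overlap. That in the rise was then 3.48 points, below its replicate SD of 4.93 points, and the groups overlapped (exact permutation p = 0.667), as they did with a running mean of 9 windows. Without KO replicate 1 the difference in the fall was -7.64 points, and without WT replicate 2 that in the rise was 4.03 points. Of all autosomal falls 39.3% and of all rises 40.9% had both KO changes larger than both WT changes. The median ratio of KO to WT was 1.21 for falls and 1.22 for rises.

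**Figure D4:**
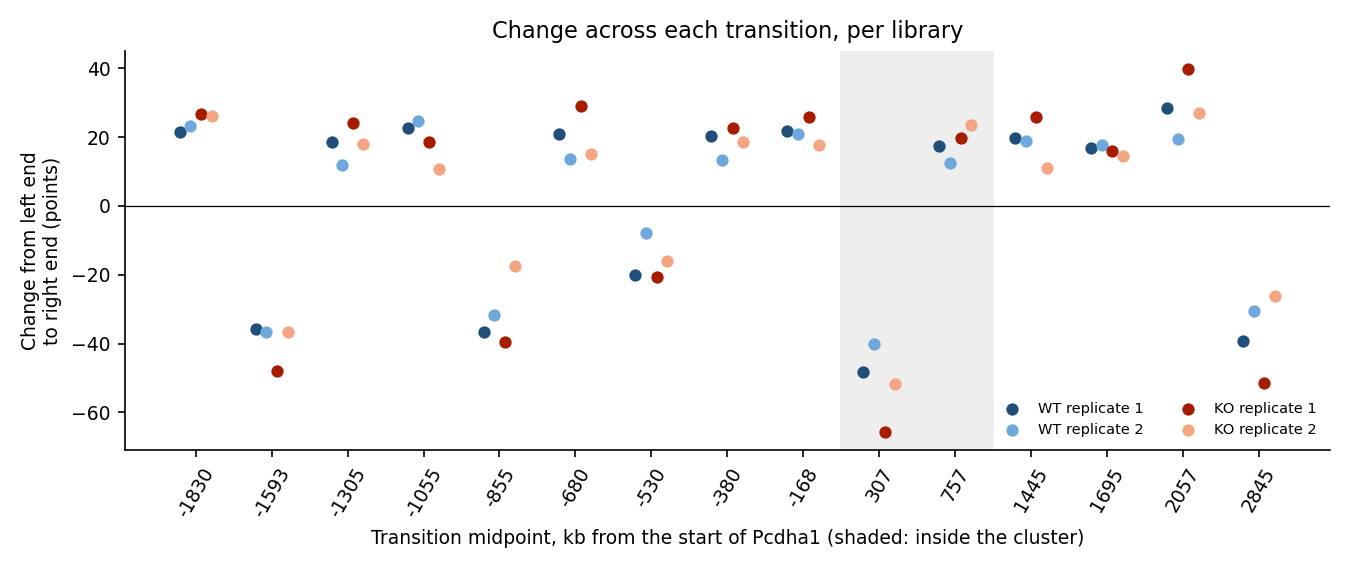
Change of polarity in points from the left to the right end (y axis) of the 15 transitions of the region, ordered by midpoint in kb from the start of Pcdha1 (x axis), with a dot for each library. The shaded pair lies inside the cluster. The fall of the cluster, between -40.2 and -65.7 points, reaches lower than the other 4 falls.

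In the flanks 13 transitions were found, and on the deposited scale 2 of them were larger in both KO libraries than in both WT libraries. These were the rise from 35025000 to 35175000 at the start of Ctnna1, the gene of alpha-catenin, which links cadherins to actin, and the fall from 35175000 to 35500000 over Ctnna1, Lrrtm2 and Sil1. The rise was 21.6 and 23.2 points (WT) against 26.7 and 26.03 points (KO). The fall was -35.7 and -36.6 points (WT) against -47.8 and -36.7 points (KO), so that KO replicate 2 was nearly level with WT replicate 2. After standardising, both differences changed sign. With a running mean of 9 windows the rise was smaller in both KO libraries (-1.77 points), and with 3 windows the difference in the rise was 7.38 points and the groups overlapped in the fall. Without KO replicate 1 the difference in the fall went from -6.12 to -0.545 points, and without KO replicate 2 it was -11.7 points. The opposite order was seen for the rise from 35775000 to 35975000 over Ube2d2a, Cxxc5 and Psd2, at 22.6 and 24.6 points (WT) against 18.4 and 10.6 points (KO) (exact permutation p = 0.33). Neither KO library had a rise of its own that matched it, and KO replicate 1 had a longer rise of 46.7 points from 35525000 to 35975000. Without KO replicate 2 the difference between the means went from -9.10 to -5.21 points. The rise from 38550000 to 38700000, over the FGF signalling inhibitor gene Spry4 and the start of Arhgap26 in coordinate order, was 16.7 and 17.8 points (WT) against 15.8 and 14.4 points (KO) (exact permutation p = 0.33). After standardising, the differences in these 2 rises grew from -9.10 to -13.7 points and from -2.16 to -5.58 points. The other 9 transitions of the flanks overlapped between the genotypes on the deposited scale. Standardising separated 3 of these, the fall from 35975000 (smaller in KO, 13.5 points) and the rises from 36675000 (-4.34 points) and 38300000 (-5.55 points). A running mean of 9 windows separated the rises from 35500000 (4.93 points), 36175000 (6.78 points) and 38825000 (9.65 points), each larger in KO. No share of autosomal transitions separated in these settings is given here, so neither count can be compared with the genome.

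A sign change could be placed in all 4 libraries for 10 of the 15 transitions. The genotypes did not overlap in 6 of them, 4 falls and 2 rises, with KO at higher coordinates in 5. Over the autosomes the share without overlap was 52.9% for falls and 45.6% for rises. The largest shift of the region lay in the right flank, in the fall from 39425000 to 40125000 that begins in Nr3c1, the glucocorticoid receptor gene. Polarity passed 0 there at 39720095 and 39703165 in WT and at 39892912 and 39904353 in KO. The shift of 187.0 kb was many times the replicate SD of 10.2 kb (exact permutation p = 0.33). It was 178.5 to 195.5 kb when each library was left out in turn, 187.2 kb after standardising and 166.2 kb with a running mean of 9 windows. With a running mean of 3 windows it could not be placed. Of the 1578 autosomal falls, 11 (0.697%) had a shift at least as large. This fall was singled out after its value was seen, and only 2 libraries, WT replicate 1 and KO replicate 1, had a fall of their own that matched it. RefSeq places Pabpc2, a gene for a poly(A)-binding protein, between the WT and KO positions, together with the lncRNA gene Gm41707.

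**Figure D5:**
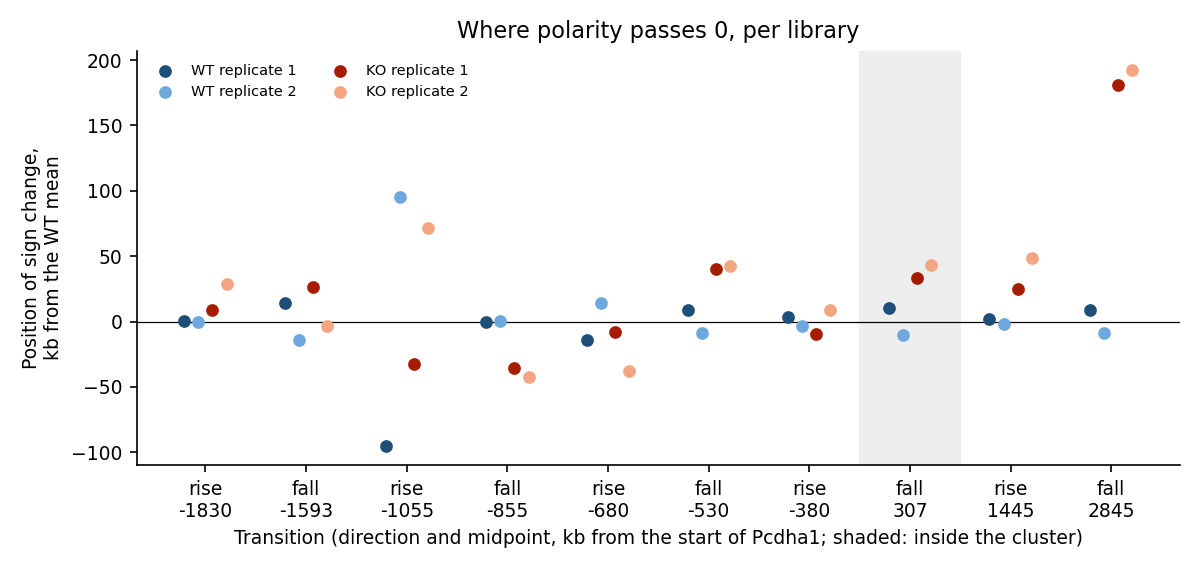
Position where polarity passes 0, in kb from the mean of the WT libraries (y axis), for 10 transitions of the region given by direction and midpoint in kb from the start of Pcdha1 (x axis), with a dot for each library. The shaded transition is the fall of the cluster, with KO 38.0 kb above WT. The last fall has both KO libraries about 187.0 kb above WT.

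The 5 separated windows with the largest differences were in both flanks and in the cluster. The largest lay at 36000001 to 36100000, at the neuregulin gene Nrg2 and the end of Psd2. WT had 16.8 and 16.4 points and KO had 4.15 and 0 points, so the means differed by -14.5 points with an SE of 4.53 points (adjusted p = 0.218 in limma). The sign change of the fall at Nrg2 lay at 36100866 and 36100965 in WT and at 36065039 and 36058595 in KO, so it lay at lower coordinates in both KO libraries. This window was the only window of the region called with the replicate number as a block (limma adjusted p = 0.0447), a setting in which 2.66% of all windows were called. It was also called without KO replicate 1 (limma adjusted p = 0.00748) and without KO replicate 2 (limma adjusted p = 0.0295), where 5.79% and 20.2% of all windows were called. Without either WT replicate no window of the region was called (lowest limma adjusted p = 0.981).

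The next was the window from 34900001, which holds Hspa9, a mitochondrial chaperone gene, and Etf1, a translation release factor gene. It had 1.26 and -1.67 points (WT) against 15.4 and 10.5 points (KO), so the means differed by 13.2 points with an SE of 4.58 points (adjusted p = 0.261 in limma). In the right flank the window from 39800001 with Gm41707 had -1.74 and -7.85 points (WT) against 6.77 and 8.41 points (KO), so the means differed by 12.4 points with an SE of 4.59 points (adjusted p = 0.293 in limma). The 6 windows that overlap it all had KO above WT as well. The window from 39500001, at the end of Nr3c1, had 10.9 and 4.68 points (WT) against 25.8 and 14.3 points (KO), so the means differed by 12.3 points with an SE of 4.94 points (adjusted p = 0.331 in limma). Only 3 of its 6 neighbours were separated in that direction. For the windows from 36000001 and 34900001 it was 4 of 6 each in their own direction. The window from 34975001, which overlaps the latter, was separated with KO below WT. Overlapping windows share reads, so these counts are not independent of the windows named. The fifth was the window of the Pcdha genes from 37000001 described above.

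Genes of the flanks were read at the window whose midpoint is nearest to that of the gene. Next to the cluster on the left, the splicing gene Ik, the histidyl-tRNA synthetase gene Hars and the zinc finger gene Zmat2 lay on the rise into the cluster. Ik had 16.9 and 15.4 points (WT) against 22.6 and 16.9 points (KO). Hars had 19.8 and 18.4 points (WT) against 30.5 and 21.3 points (KO). Zmat2 had 24.5 and 25.0 points (WT) against 34.1 and 25.6 points (KO). In all 3 the KO libraries were higher, though KO replicate 2 was almost level with a WT library at Ik and Zmat2. Their windows overlap and share reads. Cd14, on the same rise, had 9.88 and 8.92 points (WT) against 13.9 and 8.82 points (KO), and the groups overlapped. The rise as a whole, from 36675000 to 36850000, was 21.9 and 20.8 points (WT) against 25.8 and 17.8 points (KO), and the groups overlapped. Next to the cluster on the right, the formin gene Diaph1 had -12.7 and -10.8 points (WT) against -24.4 and -2.94 points (KO). The deacetylase gene Hdac3 had -15.3 and -10.2 points (WT) against -19.4 and -0.299 points (KO). At both genes the KO libraries lay on either side of the WT libraries.

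The single protocadherin genes of the right flank did not separate the genotypes. Pcdh1 had 2.03 and -4.60 points (WT) against 0.943 and 5.17 points (KO). Pcdh12, a protocadherin of endothelial cells, had -8.41 and -10.0 points (WT) against -23.1 and -5.06 points (KO). Of 21 genes of the list that lay in the region, KO was above WT in 6, below in 4 and overlapping in 11. Over all overlapping autosomal windows the groups did not overlap in 44.6%. Neighbouring genes were not separate cases, since Slc25a2 and Taf7 were read at the same window. The 6 with KO above were read at overlapping windows, those of Egr1, Etf1 and Hspa9 and those of Ik, Hars and Zmat2. None of the 21 was called in the limma fit over all 94694 overlapping windows (lowest adjusted p = 0.250), where 0.076% of windows were called. Of 8 protocadherin genes elsewhere on autosomes, KO was above WT in 4 (Pcdh7, Pcdh8, Pcdh10 and Pcdh18), below in 1 (Pcdh9) and overlapping in 3, to be read against the same 44.6%. None of those 8 was called, with a lowest adjusted p of 0.443.

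The flanks differ in gene content, as the gene table gives it. The left flank holds 53 protein-coding genes, 21.8 per Mb, and the right flank 18, 7.97 per Mb. The cluster holds 62, of which 57 are clustered protocadherins. Mean polarity of the left flank was 3.37 and 2.06 points (WT) against 3.69 and 1.89 points (KO), and the groups overlapped. In the right flank it was 4.87 and 2.92 points (WT) against 6.60 and 6.46 points (KO), where each KO library exceeded each WT library, by 2.63 points against a replicate SD of 0.977 points. The difference was 1.66 points without WT replicate 2 and 1.72 points after standardising, still without overlap. The left flank had 9 of the 15 transitions and the right flank 4.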

How the data were processed

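The deposited values are a score per 100 kb window and library, a signed strand imbalance. Reads had been aligned by the authors with Bowtie2 to GRCm38 plus an rRNA sequence and deduplicated, per the file headers. The submitters' processing notes list Trim Galore 0.6.5 and Bowtie2 2.4.1. The program behind the values, their sign and any minimum of reads are not given in the sources used here. Columns were matched to samples by genotype and replicate number.

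Autosomal windows with a value in all libraries were used. For windows spaced 100 kb, lmFit and eBayes of limma 3.58.1 (R 4.3.3) were run with Benjamini-Hochberg adjustment over all of them. On simulated data this fit recovered 199 of 200 windows shifted by 30 points, with 7 false calls, among 23672. The 95th percentile of the absolute KO minus WT difference in the real data was 12.5 points. The simulation therefore cannot show how often differences of that size are found. Other measures used Python 3.11.15, numpy 2.4.6 and pandas 2.3.3. Separated means that both KO values were higher, or both lower, than both WT values. Windows named are all cluster windows that do not overlap, the 5 separated windows with the largest differences and all transitions. Genes came from a list, of which Yipf5 and Kctd16 lay outside the region. The members and lists were chosen with earlier results of these data known. No promoter or other sequence of the region is printed.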

Additional observations from a re-analysis of the deposited data

How the results depend on the processing

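The alternatives for positions of sign changes, for the Pcdha, Pcdhb and Pcdhg means, for the means of each flank and for the whole drop were chosen after seeing the data. Depth is unknown and limits the precision of single windows. With the replicate number as a block 1 window of the region was called against 0, beside 2.66% of all autosomal windows. With standardising as well it was also 1, beside 3.62%. A block of balanced pairs cannot move a difference of means. The mean difference in the flanks, 1.31 points, was 0.499 to 2.12 points when a library was left out. The deviations of same-numbered libraries correlated at 0.241 over the autosomes and at 0.360 in the region. These values fell to 0.0158 and 0.012 after standardising. Standardising removes the wider amplitude that replicate 1 had in both genotypes, so the values cannot decide whether the libraries were paired. The block was defined by the shared replicate number alone. Called windows numbered 0 to 12 when a library was left out.

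A gap of at least 5 points left 8 of the 30 separated windows, 14.3% of the 56, beside 13.3% of the autosomal windows. Flanks limited to 1 Mb gave a mean difference of 0.131 points. Standardising gave a difference in SD of 2.22 points in the cluster, where the groups then overlapped, and -0.639 points in the flanks. On the deposited scale the flank difference, 2.25 points, was -0.248 to 4.76 points when a library was left out. Standardising reversed the Pcdhb difference to 0.0630 points and that of the left flank from 0.0794 to -0.536 points, with -0.823 to 0.981 points when a library was left out. The difference in the number of transitions, -2.5 from 17 and 17 in WT and 14 and 15 in KO, was 1 after smoothing over 3 windows, 0 over 9 windows, -2 with a minimum of 0.5 SD and 2.5 with 15 points.

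Standardising reversed the change in the transitions from 35025000 (-0.930 points), 35175000 (2.36), 36675000 (-4.34) and 39425000 (4.83), and a running mean of 9 windows that from 35025000 (-1.77). Leaving out a library gave ranges with both signs from 35975000 (-5.24 to 16.8), 36175000 (-2.20 to 11.6), 36325000 (-10.6 to 1.68), 36675000 (-3.55 to 4.47), 38300000 (-8.27 to 6.69) and 39425000 (-16.4 to 8.78). For all of these, the cause was not tested.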
